A study of Mus musculus with 13 samples.

Results

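Tal1, Lyl1, Lmo1 and Lmo2 are oncogenes of T-cell acute lymphoblastic leukaemia (T-ALL), and their chromatin was compared here between mouse leukaemia lines driven by different oncogenes. Each gene was represented by a fixed window of the mm9 mouse genome. The windows were chromosome 4 from 114715000 to 114755000 for Tal1, chromosome 8 from 87215000 to 87235000 for Lyl1, chromosome 2 from 103785000 to 103830000 for Lmo2 and chromosome 7 from 116275000 to 116325000 for Lmo1, with lengths of 40, 20, 45 and 50 kb. Every listed peak that overlapped a window by at least 1 bp was taken. This gave 48 of the 109165 peaks in 9 lists, of which 11 lay at Tal1, 3 at Lyl1, 27 at Lmo2 and 7 at Lmo1. By mark, 14 were H3K4me3 peaks, 34 were H3K27me3 peaks and 0 were peaks of the fusion protein.

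Chromatin immunoprecipitation and sequencing was performed on 4 cytokine-independent lines. Lines 748T and 106A came from pre-T LBL (a T-lineage lymphoblastic leukaemia or lymphoma) of different mice that carried NUP98-PHF23, called NP23. Line 961C came from an NP23 acute myeloid leukaemia (AML) of a further mouse, and all NP23 lines were C57BL/6. The control line came from an SCL-LMO1 pre-T LBL on a C57BL/6+C3H hybrid background and is called the SCL-LMO1 line below. SCL is another name of Tal1, so the driver oncogenes of this line are among the genes examined. The sources used here do not give how the oncogenes are driven, whether the SCL and LMO1 sequences are mouse or human, or whether a line is a single clone. The oncogene and the strain of the SCL-LMO1 line differ from the NP23 lines together and cannot be told apart.

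TAL1 and LYL1 are closely related basic helix-loop-helix factors that pair with E proteins and bind E-box DNA. LMO1 and LMO2 are LIM-domain proteins that do not bind DNA themselves and bridge TAL1 or LYL1 to LDB1 and GATA factors in a shared complex. In normal blood formation Tal1, Lyl1 and Lmo2 act in stem and progenitor cells and in erythroid and megakaryocytic cells, and they are shut down as thymocytes mature, whereas Lmo1 is chiefly known as a gene of the nervous system. H3K4me3, histone H3 trimethylated at lysine 4, marks active or poised promoters, and H3K27me3 is the repressive mark of Polycomb complexes. NP23 joins the nuclear pore protein NUP98 to PHF23, whose PHD finger binds H3K4me3.

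The RefSeq promoters of these genes are shown because H3K4me3 is a promoter mark and because the TAL1 complex binds E-box and GATA sequences. The table at hand is for build GRCm38.p6 and held 3 of the 4 genes, with 5 start sites in all, and Lmo2 was not among them. Each line gives the 250 bases before a start site, and capitals mark every match to CANNTG (the E-box core) and to GATA, searched on both strands, so that TATC counts as GATA.
Tal1 start 1, chr4:115056176-115056425, plus strand: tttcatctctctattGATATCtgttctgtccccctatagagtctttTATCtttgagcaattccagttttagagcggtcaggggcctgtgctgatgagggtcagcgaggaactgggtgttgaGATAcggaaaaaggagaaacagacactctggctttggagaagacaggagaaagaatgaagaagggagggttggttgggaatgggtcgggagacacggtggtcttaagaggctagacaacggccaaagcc
Tal1 start 2, chr4:115057561-115057810, plus strand: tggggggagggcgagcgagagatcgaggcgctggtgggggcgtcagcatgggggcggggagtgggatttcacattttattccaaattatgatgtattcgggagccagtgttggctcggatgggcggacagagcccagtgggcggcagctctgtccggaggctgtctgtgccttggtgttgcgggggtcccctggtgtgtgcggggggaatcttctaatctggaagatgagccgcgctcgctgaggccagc
Lyl1, chr8:84701207-84701456, plus strand: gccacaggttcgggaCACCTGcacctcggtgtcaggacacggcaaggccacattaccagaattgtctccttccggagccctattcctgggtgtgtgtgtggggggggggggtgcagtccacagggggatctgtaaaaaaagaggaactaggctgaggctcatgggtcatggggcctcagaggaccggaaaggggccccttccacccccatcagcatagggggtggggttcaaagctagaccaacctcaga
Lmo1 start 1, chr7:109175208-109175457, minus strand: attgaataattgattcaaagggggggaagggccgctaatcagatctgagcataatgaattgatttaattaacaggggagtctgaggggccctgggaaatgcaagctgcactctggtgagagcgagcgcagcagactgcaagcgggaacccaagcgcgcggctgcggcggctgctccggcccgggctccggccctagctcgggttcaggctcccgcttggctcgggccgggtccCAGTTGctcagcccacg

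Tal1 start 1 held 4 GATA matches, of which a pair overlap in GATATC, and 0 CANNTG matches. Tal1 start 2 held 0 of either motif, while the Lyl1 and Lmo1 stretches held 1 CANNTG match each, CACCTG and CAGTTG, and 0 GATA matches. Matches to such short motifs were common: of 32851 promoters of the same length, 66.2% held CANNTG and 53.6% held GATA. The promoters differed more in CG dinucleotides, the substrate of DNA methylation. Tal1 start 2 held 16 CG and Lmo1 start 1 held 17, more than 74.6% and 76.5% of all promoters. Tal1 start 1 held 6 and Lyl1 held 5, close to the median of 6. A further Lmo1 start, whose stretch overlaps the one shown, held 29. The peaks are on mm9, so these stretches were not set against them, and where each gene lies inside its window was not analysed here. In GRCm38.p6, Tal1 lies between Stil and Pdzk1ip1, Lyl1 between Trmt1 and Nfix, Lmo2 between Caprin1 and 4931422A03Rik, and Lmo1 between Ric3 and Stk33.

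Each line had 1 list per mark, with 16324 to 17696 H3K4me3 peaks and 4875 to 19469 H3K27me3 peaks, the most of both in 961C. Peak heights are the authors' read pileups. The median H3K4me3 peak reached 38 reads in 961C and 76 to 97 in the other lines, and the median H3K27me3 peak reached 10 to 12. The lists give no read totals, so the depth is unknown, heights are ranked only within a list, and a window with 0 peaks holds no listed peak, which does not show that the mark is absent. With 1 library for each line and antibody, no difference between lines was tested. The labelled cell types were not checked against marker genes, because the lists carry no gene names.

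All 4 windows carried H3K4me3 in the AML line 961C, and most of it was not listed in the T-lineage lines. Along the genome, 961C H3K4me3 lay in 16.5% of 40-kb, 9.91% of 20-kb, 17.8% of 45-kb and 19.2% of 50-kb windows. In the other lines the shares for the same lengths ran from 8.81% to 19.4%. These genome windows were not chosen to hold genes. In 961C, 6 H3K4me3 peaks covered 14099 bp. In 748T, 3 peaks covered 3082 bp at Tal1 and Lyl1. In the SCL-LMO1 line, 4 peaks covered 1221 bp, all at Lmo1, and in 106A 1 peak of 132 bp lay at Lmo2. H3K27me3 had another distribution: 16 peaks with 6100 bp in 748T, all at Lmo2, 9 peaks with 6556 bp in 961C at Tal1 and Lmo1, 6 peaks with 1933 bp in 106A at Lmo2 and Lmo1, and 3 peaks with 829 bp in the SCL-LMO1 line at Lmo2. The Lyl1 window held no listed H3K27me3 peak in any line.

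**Figure D1:**
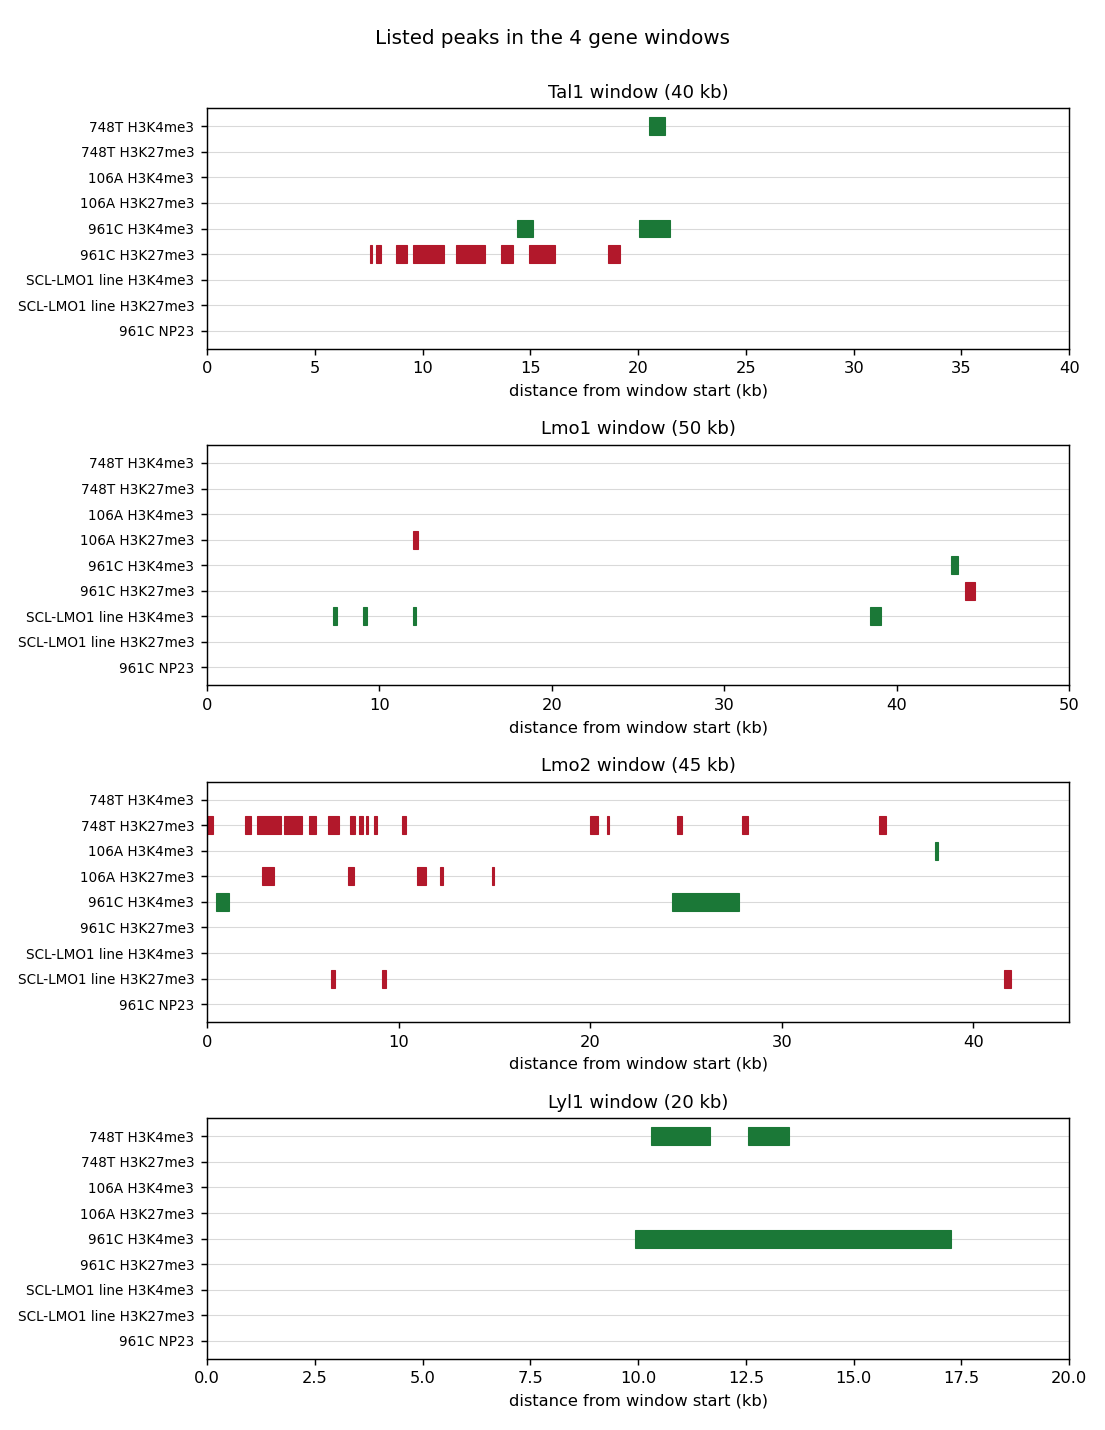
Listed peaks in the windows of Tal1, Lmo1, Lmo2 and Lyl1, with 1 row for each line and antibody and the distance from the window start in kb on the x axis. Green bars are H3K4me3 peaks and red bars H3K27me3 peaks, and the NP23 row is empty in all 4 windows, while H3K27me3 forms runs of 16 peaks at Lmo2 in 748T and 8 peaks at Tal1 in 961C.

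No H3K4me3 region in these windows was present in all 4 lines. Overlapping H3K4me3 peaks of the 4 lines merged into 11 regions in the windows and 25059 in the genome. Of the 11, 0 were present in all 4 lines, against 37.8% of all regions. This count depends on the window edges, as a region of all 4 lines lay 0.642 kb below the Lyl1 window. With Lyl1 widened by 10 kb on both sides, H3K4me3 covered 3480 bp in the SCL-LMO1 line and 3443 bp in 106A. Merged regions were not recounted in widened windows. In the windows 4 regions were found in 961C alone (17.7% of all regions), 4 in the SCL-LMO1 line alone (10.3%) and 1 in 106A alone (5.84%). The remaining 2, at Tal1 and Lyl1, were held by 748T and 961C together, a pattern of 1.70% of all regions. The window peaks were also small for H3K4me3: 11 of 14 were lower than the median peak of their list, and 10 of 14 were narrower. With only the taller 50% of each list, 3 regions were left, of which 961C held 2 and the SCL-LMO1 line held 1. Most H3K27me3 peaks were not narrow for their mark, since 9 of 34 were narrower than their list's median. By height, 9 of 34 lay below their list's median. These heights are whole reads with many ties, so less than 50% of each H3K27me3 list lay below its own median height. The share was 28.2% for the SCL-LMO1 line, 29.5% for 106A, 36.6% for 748T and 37.3% for 961C. The height count alone therefore does not set the window peaks apart from their lists.

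**Figure D2:**
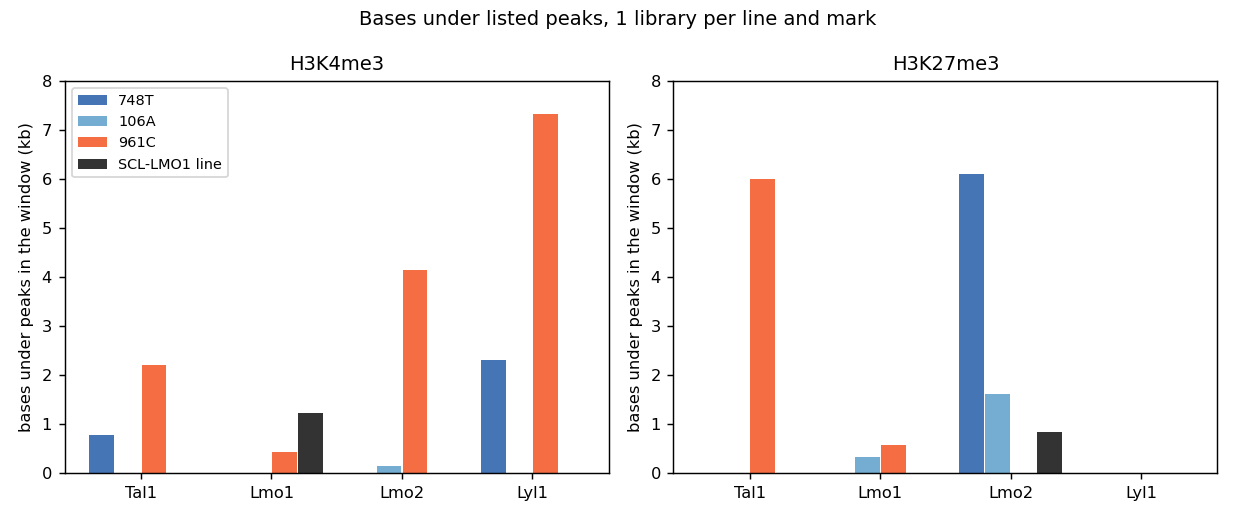
Bases under listed H3K4me3 (left) and H3K27me3 (right) peaks in each gene window, in kb, with 1 bar for each line and 1 library behind each bar. For H3K4me3, 961C is highest at Tal1, Lmo2 and Lyl1 and the SCL-LMO1 line is highest at Lmo1, and for H3K27me3 961C is highest at Tal1 and 748T at Lmo2.

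Tal1, the DNA-binding factor that gives the SCL-LMO1 line part of its name, carried H3K4me3 in 748T and 961C and no listed peak of either mark in 106A or in the SCL-LMO1 line. The H3K4me3 cover of the window was 771 bp in 748T, 0 bp in 106A, 2200 bp in 961C and 0 bp in the SCL-LMO1 line. The peak of 748T, from 114735491 to 114736261, reached 33 reads, and 30.1% of the H3K4me3 peaks of that list were lower. It lay whole inside a 961C peak of 1450 bp from 114735046 to 114736495, which reached 36 reads. That 961C peak was low for its size, as 14.3% of 961C peaks of like width (within 10%) were lower. The other 961C peak, from 114729366 to 114730115, had 750 bp and 25 reads. Since 961C had the most H3K4me3 in 37.0% of the 40-kb windows that held H3K4me3 in any line, its first place at Tal1 was a common outcome.

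In 961C the Tal1 window held a run of H3K27me3 beside and partly under its H3K4me3. The 8 peaks covered 5990 bp and spanned 11.6 kb from 114722559 to 114734150, with gaps of 159 to 2434 bp (median 708). Their widths ran from 101 to 1442 bp and their maxima from 10 to 25 reads. The tallest, from 114723791 to 114724276, exceeded 98.5% of the H3K27me3 peaks of 961C. The lists also hold a companion track, which is unexplained and was read as background. Under this tallest peak its mean was 0.977 reads, more than under 97.9% of the list. Under the other peaks of the run it exceeded 0% to 77.1% of the list. The part of the companion track in these heights was not tested. The other 3 lines had 0 bp. As much H3K27me3 as at Tal1 was found in 0.399% of 40-kb windows of 961C, and 961C led in 47.8% of the windows of that length with H3K27me3 in any line, with the longest list of the 4.

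**Figure D3:**
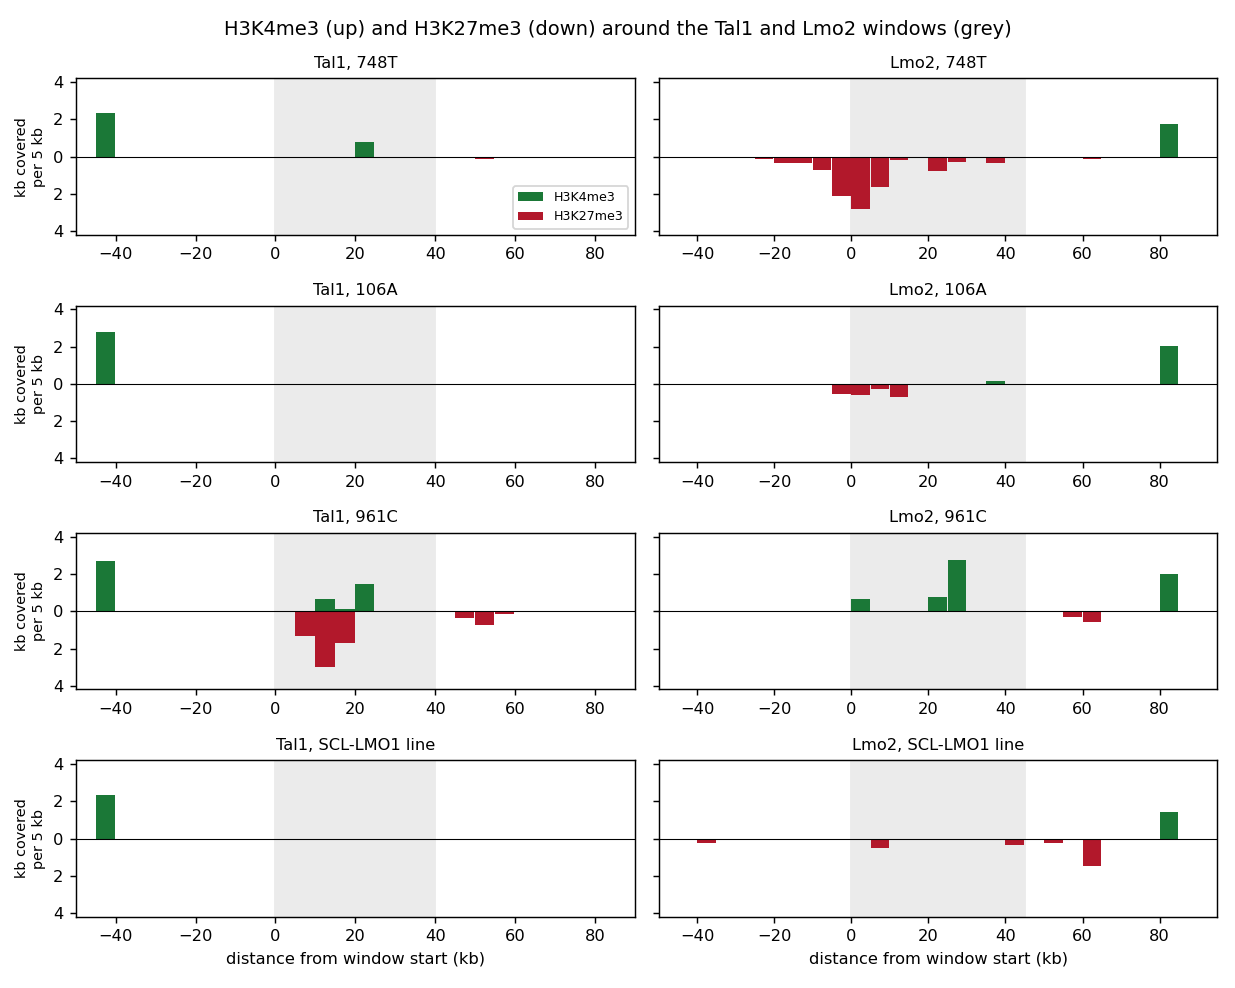
Bases covered per 5-kb bin by H3K4me3 (green, upward) and H3K27me3 (red, downward) around the Tal1 and Lmo2 windows (grey), in kb, by line, with the distance from the window start in kb on the x axis. All 4 lines share an H3K4me3 region 40.1 kb below the Tal1 window and another 37.6 kb above the Lmo2 window, and inside the windows the lines differ.

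The marks met at Tal1 in 961C. The H3K4me3 peak from 114729366 to 114730115 shared 192 bp with the H3K27me3 peak from 114729924 to 114731159. The other H3K4me3 peak lay 895 bp above the end of the run. Such overlap was seen for 1 of the 6 window H3K4me3 peaks of 961C, against 383 of 17696 (2.16%) in its list. It was seen for 0 of 3 window peaks of 748T, 0 of 1 of 106A and 0 of 4 of the SCL-LMO1 line. In the whole lists it was seen for 138 of 17544 peaks (0.787%) in 748T and 24 of 16324 (0.147%) in 106A. In the SCL-LMO1 line it was seen for 0 of 17616, so a count of 0 was the usual state in these lines. The overlap does not show that both marks sat on the same DNA molecules, which was not tested.

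The lack of Tal1 peaks in 106A and the SCL-LMO1 line did not extend to the neighbouring H3K4me3. The nearest H3K4me3 region present in all 4 lines lay 40.1 kb below the window, from 114671832 to 114674908. It covered 2370 bp in 748T, 2778 in 106A, 2368 in the SCL-LMO1 line and 2676 in 961C, with maxima of 125, 120, 117 and 75 reads in this order. Those values lay close together in width, unlike the 0 to 2200 bp inside the window. Within 50 kb on either side, H3K27me3 added 4 peaks above the window in 961C and 1 in 748T, and 0 in 106A and the SCL-LMO1 line.

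Lyl1, the helix-loop-helix relative of Tal1, had the widest and tallest H3K4me3 peak of the 4 genes, and again H3K4me3 was listed in 961C and 748T. The cover was 2311 bp in 748T, 0 bp in 106A, 7331 bp in 961C and 0 bp in the SCL-LMO1 line. In 961C it was a single peak from 87224920 to 87232250 that filled 36.7% of the window and reached 97 reads. It ranked 38 of 17696 H3K4me3 peaks by width, and 97.8% of them were lower. A 20-kb window of 961C held as much H3K4me3 in 0.0599% of cases, and 961C led in 36.7% of the 20-kb windows that held H3K4me3 in any line.

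The 748T signal at Lyl1 was made of smaller pieces in the same place. Its peaks ran from 87225307 to 87226662 (1356 bp, 26 reads) and from 87227541 to 87228495 (955 bp, 56 reads), and all 2311 bp lay inside the 961C peak, of which they made up 31.5%. The wider piece was low for its width, since 1.18% of 748T peaks of like width were lower, with a median of 110 reads among them. Thus the window of highest H3K4me3 in 961C held H3K4me3 below the list's median height in 748T and no listed peak in the remaining T-lineage lines.

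H3K27me3 was not listed in the Lyl1 window in any of the 4 lines, which was the usual state: 2.84% to 6.18% of 20-kb windows held an H3K27me3 peak, depending on the line. Just below the window, from 87212676 to 87214357, all 4 lines had H3K4me3. It covered 978 bp in 748T, 1309 in 106A, 987 in the SCL-LMO1 line and 1653 in 961C, with maxima of 86, 67, 89 and 66 reads in this order. Above the window the lines differed again. The nearest H3K4me3 peak there lay 11.4 kb away in 961C (2438 bp, 45 reads), 11.7 kb away in 748T (1403 bp, 31 reads), 12 kb away in the SCL-LMO1 line (113 bp, 14 reads) and 87.9 kb away in 106A.

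**Figure D4:**
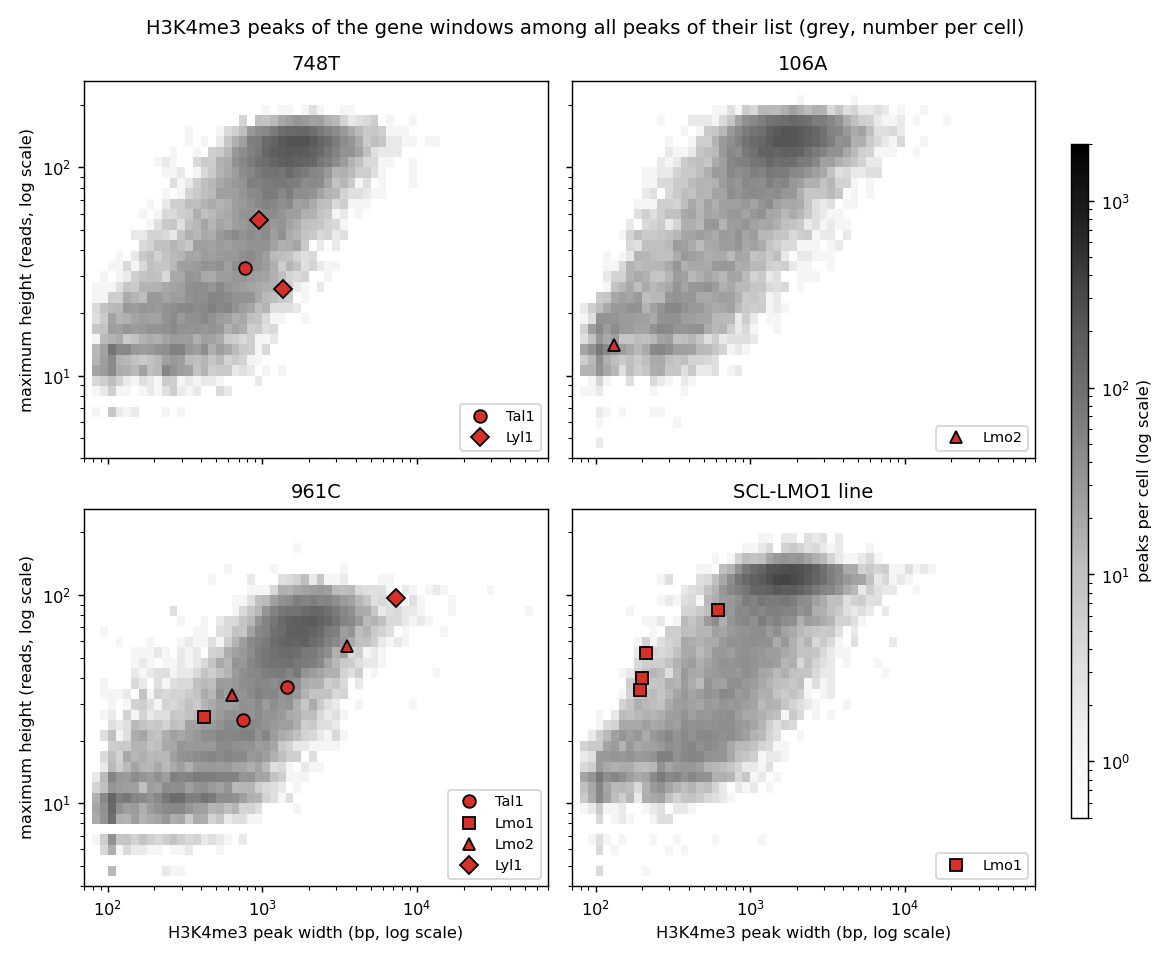
Width in bp and maximum height in reads, both on log scales, of the H3K4me3 peaks in the gene windows (red symbols by gene) over all H3K4me3 peaks of the same line (grey, number per cell on a log scale). The Lyl1 peak of 961C sits at the wide and tall end with 7331 bp and 97 reads, the Lyl1 and Tal1 peaks of 748T lie low for their width, and the 3 narrow Lmo1 peaks of the SCL-LMO1 line lie high for theirs.

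Lmo2, the bridging protein of the complex in blood cells, differed in its listed marks between the myeloid and T-lineage lines, mostly at different places in the window. H3K27me3 was listed in the 3 T-lineage lines, with and without NP23, and not in 961C, while broad H3K4me3 was listed in 961C. The myeloid side is the single line 961C, whose H3K27me3 lay in 10.6% of 45-kb windows, so its lack in a window was the usual state. H3K27me3 covered 6100 bp in 748T, 1605 bp in 106A, 829 bp in the SCL-LMO1 line and 0 bp in 961C. H3K4me3 covered 4149 bp in 961C, 132 bp in 106A and 0 bp in 748T and in the SCL-LMO1 line.

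The H3K4me3 of 961C at Lmo2 lay in a peak of 3514 bp from 103809256 to 103812769 and a smaller one of 635 bp from 103785489 to 103786123. The larger reached 57 reads, and 97.1% of the 961C peaks were narrower. As much H3K4me3 was found in 1.84% of 45-kb windows of 961C, and 961C led in 36.9% of the 45-kb windows with H3K4me3 in any line. The only other H3K4me3 peak, in 106A from 103822998 to 103823129, had 132 bp and 14 reads and was lower than nearly all of its list, of which 4.1% lay below it. The larger 961C peak overlapped a 748T H3K27me3 peak of 256 bp from 103809548 to 103809803, so that stretch was listed with opposite marks in these lines. No other H3K27me3 peak of a T-lineage line overlapped 961C H3K4me3 in the window. That 748T peak was of middling height, with 13 reads and 51.8% of its list lower.

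The H3K27me3 of 748T at Lmo2 was a run of 16 peaks from 103784968 to 103820425. Their widths were 98 to 1252 bp and their maxima 10 to 22 reads, against a list median of 12. The widest ran from 103787590 to 103788841, and the tallest, from 103791316 to 103791894, had 579 bp. The run was densest in the lower part of the window and had a longest gap of 9580 bp. As much H3K27me3 was found in 0.0529% of 45-kb windows of 748T. Line 748T led in 19.7% of the 45-kb windows with H3K27me3 in any line.

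The other T-lineage lines had fewer H3K27me3 peaks at Lmo2, in lists that were also shorter. The 5 peaks of 106A were 101 to 617 bp wide with maxima of 9 to 18 reads and lay between 103787860 and 103799984. The 3 peaks of the SCL-LMO1 line lay at 103791449 to 103791700, 103794128 to 103794366 and 103826609 to 103826946, with 252, 239 and 338 bp and maxima of 13, 14 and 18 reads. All 3 were above the median of their list, and the last exceeded 96.2% of it. The companion track under the peak at 103794128 exceeded 95.5% of the SCL-LMO1 list, against 32.7% and 53.6% under the other peaks of that line. Under the 617-bp peak of 106A it exceeded 95.9% of that list, against 27.1% to 84.6% under the other 106A peaks. Cover as high as that of 106A was found in 0.251% of 45-kb windows of that line, and as high as that of the SCL-LMO1 line in 0.45% of its windows. The windows therefore ranked high in each T-lineage list, whatever its length.

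The T-lineage lines shared only part of this H3K27me3. 748T and 106A had 821 bp in common, which was 51.2% of the 106A bases and 13.5% of the 748T bases. 748T shared 252 bp with the SCL-LMO1 line, which was 30.4% of the SCL-LMO1 bases and 4.13% of those of 748T, and 106A shared 0 bp with the SCL-LMO1 line. With 50 kb on either side, the H3K27me3 peaks numbered 28 in 748T, 8 in 106A, 10 in the SCL-LMO1 line and 4 in 961C. In 748T 11 of the added peaks lay below the window and 1 above, in the SCL-LMO1 line 2 lay below and 5 above, and in 961C all 4 lay above. The H3K4me3 region shared by all 4 lines 37.6 kb above the window, from 103867627 to 103869616, covered 1748 bp in 748T, 1933 in 106A, 1431 in the SCL-LMO1 line and 1990 in 961C.

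Lmo1, the other LIM protein and a named oncogene of the SCL-LMO1 line, had the only one of the 4 windows with listed H3K4me3 in that line. This depends on the window edges, as the line had 3480 bp of H3K4me3 in the Lyl1 window widened by 10 kb. The Lmo1 cover was 0 bp in 748T, 0 bp in 106A, 419 bp in 961C and 1221 bp in the SCL-LMO1 line. The SCL-LMO1 line thus stood above the 3 NP23 lines. It led in 25.8% of all 50-kb windows that held H3K4me3 in any line, and as much H3K4me3 was found in 13.1% of its 50-kb windows. Such cover was thus common, and the shape of the peaks was less so.

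The SCL-LMO1 line had 4 Lmo1 peaks over 31.7 kb, of which 3 were short and steep. From 116282332 to 116282544 a peak of 213 bp reached 53 reads, and from 116284063 to 116284255 a peak of 193 bp reached 35 reads. From 116286927 to 116287125 a peak of 199 bp reached 40 reads. Gaps of 1518 and 2671 bp separated these 3, and a gap of 26313 bp led to the last, from 116313439 to 116314054, with 616 bp and 85 reads. Peaks of like width in the same list had medians of 19, 19, 20 and 34 reads in this order, and 96.7%, 91.6%, 92.1% and 87.2% of them were lower. No Lmo1 peak of the line overlapped a peak of another H3K4me3 list.

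Narrow and tall H3K4me3 peaks of this kind were uncommon in the SCL-LMO1 list, where 100 of 1828 peaks under 250 bp reached 35 reads or more (5.47%). All 3 narrow Lmo1 peaks belonged to these 100, by limits that were set from the peaks themselves and so give no test. Under the same limits the share was 5.46% in 748T, 7.55% in 106A and 1.57% in 961C. Such peaks were thus not particular to the SCL-LMO1 list. The companion track of the lists, read as background, had means of 0.061, 1.04, 1.92 and 1.91 reads under the 4 Lmo1 peaks, and the last pair exceeded 96.0% and 95.9% of the list. The other peaks exceeded 1.77% and 46.2% of it. The part of the companion track, or of transgene sequence, in these peaks was not tested.

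In the other lines the Lmo1 window was nearly empty. In 961C an H3K4me3 peak of 419 bp from 116318140 to 116318558 reached 26 reads, and 404 bp above it an H3K27me3 peak of 566 bp from 116318963 to 116319528 reached 24 reads, higher than 98.1% of the H3K27me3 peaks of 961C. In 106A an H3K27me3 peak of 328 bp from 116286921 to 116287248 reached 10 reads and lay over the SCL-LMO1 peak that starts at 116286927. 748T held no peak of either mark. For H3K27me3, 961C led in 47.8% of the 50-kb windows with the mark in any line, as it did at Lmo1. The nearest H3K4me3 present in all 4 lines lay 195 kb below and 337 kb above the window.

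The design implies a comparison of the SCL-LMO1 line with the NP23 pre-T lines 748T and 106A. For Lmo1 H3K4me3 the SCL-LMO1 line had 1221 bp against a mean of 0 ± 0 bp (SD, n = 2), and this was the only gene and mark in which it lay above all 3 NP23 lines. With the taller 50% of each list it had 616 bp, since only the widest Lmo1 peak remained. For Tal1 and Lyl1 H3K4me3 it had 0 bp against 385.5 ± 545.2 and 1155.5 ± 1634 bp (SD, n = 2). For Lmo2 it had 0 bp of H3K4me3 against 66 ± 93.34 bp and 829 bp of H3K27me3 against 3852.5 ± 3178 bp (SD, n = 2). For Lmo1 H3K27me3 it had 0 bp against 164 ± 231.9 bp (SD, n = 2).

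In each of these other comparisons the SCL-LMO1 line lay within the range of the 3 NP23 lines, and the NP23 pre-T lines differed from each other. Except for Lmo2 H3K27me3, the SCL-LMO1 line and the lowest NP23 line both had 0 bp. No lower value was possible there, so lying within the range does not show that the lines are alike. For Lmo2 H3K27me3 the SCL-LMO1 line lay below both pre-T lines, with 829 bp against 6100 bp in 748T and 1605 bp in 106A. The AML line 961C with 0 bp set the lower end of that range. For Tal1 and Lyl1 H3K4me3 the mean rested on 748T alone: without it the differences were 0 bp, and without 106A they were -771 and -2311 bp. For Lmo1 H3K27me3 and Lmo2 H3K4me3 they rested on 106A alone, with 0 bp without it and -328 and -132 bp without 748T. The Lmo2 H3K27me3 difference of -3023.5 bp was -776 bp without 748T and -5271 bp without 106A. At Tal1 and Lyl1 the SCL-LMO1 line and 106A had the same 0 bp of both marks.

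NP23, mapped through its V5 tag in 961C, had no listed peak in any of the 4 windows, also when they were widened by 10 kb on both sides. The nearest of its 1629 peaks lay 830 kb above the Tal1 window, 723 kb above Lmo1, 1.70 Mb below Lmo2 and 1.85 Mb above Lyl1. This was the usual state of the genome: NP23 peaks lay in 1.85% of 40-kb windows, 2.28% of 50-kb windows, 2.06% of 45-kb windows and 0.959% of 20-kb windows. Most of those windows are unlike the gene windows, as 961C H3K4me3 lay in 16.5%, 19.2%, 17.8% and 9.91% of them in this order. For Tal1, Lmo1 and Lmo2 no background matched for H3K4me3 was computed.

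For Lyl1 the comparison with other broad H3K4me3 peaks of 961C gives another background, chosen after the values were seen. Of the 37 H3K4me3 peaks wider than the Lyl1 peak, 36 held an NP23 peak (97.3%), as did 18 of the 23 other peaks within 10% of its width (78.3%). Of the 79 windows of 20 kb with at least as much H3K4me3 in 961C as Lyl1, 57 held NP23 (72.2%). The Lyl1 peak was thus among the minority of broad 961C peaks without NP23. Among the 60 widest, 8 lacked it, at ranks 21, 38, 39, 40, 41, 46, 52 and 59, with Lyl1 at rank 38. The peaks at ranks 39 to 41, next below it in width, lacked NP23 as well, and the peak at rank 37, next above it, held NP23.

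**Figure D5:**
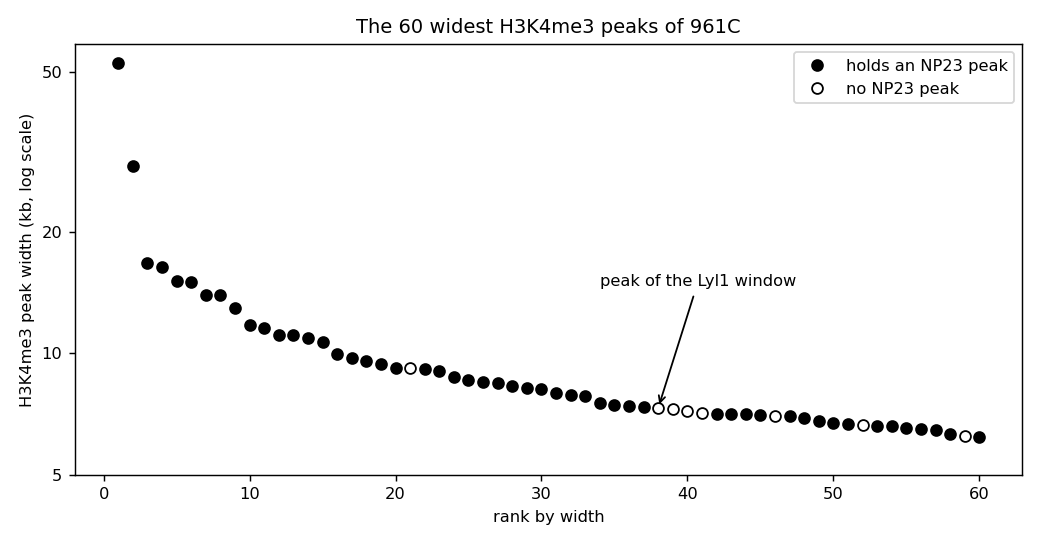
Width in kb, on a log scale, of the 60 widest H3K4me3 peaks of 961C against their rank, with filled points for peaks that hold an NP23 peak and open points for those that do not. There are 8 open points, and the Lyl1 peak is the open point at rank 38.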

How the data were processed

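Chromatin immunoprecipitation was sequenced in 13 samples of 4 mouse lines. The 9 peak lists were used, 1 per library, and the 4 input samples were not analysed here. Reads were handled with CASAVA 1.9 and BWA 0.5.9-r26 on build mm9, per the submitters' processing notes, and the sources used here do not name the tool that called the peaks. Each list, as the authors deposited it, gives a start, an end and a text with the mean and maximum pileup signal (height in reads) of the sample and of an unexplained companion track, missing for 5 peaks. The width and number of peaks depend on that unknown caller and on depth, which is unknown. Counting starts at 0 in the lists, and coordinates were made 1-based.

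Samples were grouped by the labelled line and antibody, and 748T and 106A form the NP23 pre-T group. The 4 genes, their windows and the motifs were chosen with earlier results of these data known. All 4 genes and every peak in their windows were to be named. Bases under peaks in each window were counted, and the difference is the SCL-LMO1 line minus the mean of 748T and 106A. With 1 library per line and mark no test was made. For background, windows of the same length were laid end to end along the genome, and H3K4me3 peaks of the 4 lines were merged where they overlapped. Like width means within 10%. The limits of 250 bp and 35 reads for narrow, tall peaks and the comparisons of Lyl1 with broad 961C peaks were chosen after the values were seen. Alternatives were the taller 50% of each list, joining within 1 kb, windows widened by 10 kb, whole peaks by midpoint, NP23 peaks of 500 bp or more, and leaving out 748T or 106A. Python 3.11.15, numpy 2.4.6 and matplotlib 3.10.9 were used, and the interval steps were tested on simulated data.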

Additional observations from a re-analysis of the deposited data

How the results depend on the processing

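With only the taller 50% of each list, the H3K4me3 difference at Lmo1 was 616 bp in place of 1221, the merged H3K4me3 regions in the windows numbered 3 in place of 11, those in a single line 3 in place of 9, those in the SCL-LMO1 line 1 in place of 4 and those in 961C 2 in place of 6. The differences at Tal1, Lmo2 and Lyl1 H3K4me3 were then 0 bp, because no pre-T peak there was in the taller 50%. Leaving out 748T or 106A gave -771 to 0 bp for Tal1 H3K4me3, -2311 to 0 for Lyl1 H3K4me3, -132 to 0 for Lmo2 H3K4me3, -328 to 0 for Lmo1 H3K27me3 and -5271 to -776 for Lmo2 H3K27me3, and 1221 bp in both cases for Lmo1 H3K4me3. The Lmo2 H3K27me3 difference of -3023.5 bp was -2111 with taller peaks, -4987.5 with peaks joined within 1 kb and -4454.5 in the widened window. The Lyl1 H3K4me3 difference of -1155.5 bp was -1594.5 with joined peaks and -986 in the widened window. NP23 peaks in the windows also numbered 0 when the windows were widened by 10 kb. The taller 50% and the limit of 500 bp only remove peaks, so they could not change that 0. No difference changed sign under the alternatives, but for most this was fixed in part. For Tal1, Lyl1 and Lmo2 H3K4me3 and for Lmo1 H3K27me3 the SCL-LMO1 line had 0 bp. For Lmo1 H3K4me3 the pre-T lines had 0 bp. Keeping only taller peaks or leaving out a line could not reverse these signs, since cover cannot fall below 0. No paired analysis was possible because the SCL-LMO1 line has a single sample per mark. Peak numbers and heights, with no read totals, limit what an empty window shows.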
